A study of Mus musculus with 2 samples.

Results

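The genes described here are 8 members of the S100 family, which encode small calcium-binding proteins: S100a8, S100a9, S100a4, S100a6, S100a10, S100a11, S100a1 and S100a13. They were chosen by name from the 17 S100 genes among the 32285 genes counted, and were followed across cell classes defined by marker genes and between the libraries. The data are single-cell RNA-seq of cells sorted from colorectal polyps of mice with antibodies to CD11b and CD11c, surface proteins of myeloid cells. The WT library pooled 5 mice of strain C57BL6/J, and the KO (Clec7a-/-) library pooled 4 mice on that strain lacking Clec7a, the gene for the beta-glucan receptor Dectin-1, in the whole body. Both groups had received the carcinogen azoxymethane (AOM) and then 3 cycles of 1% dextran sulfate sodium (DSS) in the drinking water, which inflames the colon. Cells were taken 16 weeks after AOM, and the labels give an age of 26 weeks for both. With 1 library per genotype, no difference between WT and KO could be tested. Clec7a itself was not analysed here, so the genotype labels were not checked by its level. Genotype, pool of mice and library cannot be told apart, and the intervals given are exact 95% intervals for counting error only.

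S100 proteins bind calcium through EF-hand motifs and mostly work as pairs. S100a8 and S100a9 join to form calprotectin, which fills the cytosol of neutrophils and, in lesser amount, of monocytes, binds zinc and manganese, and signals through Tlr4 and Ager (RAGE) once released. S100a4 binds non-muscle myosin and is known for its part in cell motility. S100a6 binds calcyclin-binding protein (Cacybp) and annexins, S100a10 forms a complex with annexin A2 (Anxa2) at the plasma membrane, and S100a11 binds annexin A1. S100a1 acts on calcium handling and is best known from muscle, and S100a13 assists the release of Fgf1 and Il1a, which lack a signal peptide. Calprotectin in stool is a clinical measure of gut inflammation.

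All 8 genes lie on chromosome 3 (GRCm38, GENCODE M21), as do 14 of the 17 S100 genes. S100a1 (chr3:90511034-90514392, minus strand) and S100a13 (chr3:90514435-90524581, plus) are 42 bases apart. S100a4 (chr3:90603771-90606045, plus), S100a6 (chr3:90612882-90624181, plus), S100a8 (chr3:90668978-90670035, plus) and S100a9 (chr3:90692632-90695721, minus) follow, with 22596 bases between S100a8 and S100a9. S100a11 (chr3:93520488-93526287, plus) and S100a10 (chr3:93555080-93564643, plus) form a second site 2824766 bases beyond S100a9. The stretches of 60 bases just before the RefSeq transcript start (GRCm38.p6, written along the transcribed strand) are shown for 4 genes of the first site, because S100a8 and S100a9 were highest and S100a4 close to absent in neutrophil-like cells, with S100a6 lying between them on the chromosome. The capitals mark the letters TATAAA.
S100a8, chr3:90669011-90669070, plus strand: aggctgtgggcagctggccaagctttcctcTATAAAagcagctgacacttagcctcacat
S100a9, chr3:90695722-90695781, minus strand: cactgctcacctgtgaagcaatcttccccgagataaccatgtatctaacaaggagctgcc
S100a4, chr3:90603710-90603769, plus strand: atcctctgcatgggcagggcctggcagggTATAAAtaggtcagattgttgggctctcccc
S100a6, chr3:90612834-90612893, plus strand: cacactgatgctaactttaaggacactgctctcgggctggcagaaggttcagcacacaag
TATAAA, searched on both strands, was present in this window in S100a8 (first base at -30) and S100a4 (at -31), 2 of the 7 members with a RefSeq promoter, and in 3.92% of all 32851 promoters. In S100a9 it began at base 1 of the RefSeq transcript, so that over 250 bases before and 50 after the start 3 of 7 members and 13.6% of promoters held it. A loose form of the motif bound by C/EBP factors, TTNNGNAA on either strand, was found within 250 bases before the start in S100a8 and S100a9 only among the 7 members, and in 36.8% of all promoters. It did not overlap TATAAA in S100a8 or S100a9, since none of the 7 members held it in the last 60 bases before the start. These matches describe the letters and do not show binding.

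The libraries held 3467 (WT) and 3080 (KO) cell barcodes with medians of 3246 and 2696.5 unique molecular identifiers (UMIs, 1 per captured RNA molecule), and 2696 and 1999 cells passed the filter. Of the barcode sequences, 17 occurred in both libraries. Clusters were built with every S100 gene left out, and 11 of 15 held 4579 of the 4695 cells. Marker genes named 8 of these: neutrophil-like (496 WT and 87 KO cells), monocyte-like (413 and 279), transitional-like (327 and 219, with Ccl24, Mmp19 and Arg1), Mmp13 Pf4 macrophage-like (310 and 190), Olfml3 Lpl macrophage-like (221 and 106), type 1 dendritic or cDC1-like (92 and 181), mature-DC-like (139 and 230) and T-cell-like (67 and 121). The other 3 did not meet the marker rule and are called by genes among their 10 leading ones, except Cd209a, which is a listed marker but not among them: the Chil3 Slpi cluster (264 and 60), the Prok2 Mdk cluster (180 and 317) and the Ccl17 Cd209a cluster (130 and 150). Neutrophil markers summed to 32828 CPM (WT) in neutrophil-like cells, 15099 in the Prok2 Mdk cluster and 15003 in the Chil3 Slpi cluster. Monocyte markers in the Chil3 Slpi cluster summed to 1505 (WT) and 2163 (KO) CPM. They were at 963 and 1048 CPM in neutrophil-like and 2410 and 3175 CPM in monocyte-like cells. In the Ccl17 Cd209a cluster, markers of type 2 dendritic cells summed to 815 (WT) and 995 (KO) CPM. Mature-DC markers summed to 4275 and 4649 CPM there and monocyte markers to 1051 and 911 CPM. In mature-DC-like cells these sums were 790 and 654, 13148 and 14046, and 208 and 287 CPM. The 8 transitional markers did not single out the transitional-like class, at 8241 (WT) and 7163 (KO) CPM there. They summed to 13736 and 12478 CPM in monocyte-like cells and 8128 and 8077 CPM in the Chil3 Slpi cluster. T cells lie outside the sorting gate, and all 11 T-cell markers were detected in the T-cell-like class of both libraries. Levels are given as CPM, the gene's UMIs divided by all UMIs of the same cells and scaled up, and since the kit counts RNA 3′ ends, genes of different length were compared on this scale without dividing by length. S100a8, S100a9 and S100a4 are themselves among the 10 leading genes of the neutrophil-like class, the Chil3 Slpi cluster (S100a9) and the Ccl17 Cd209a cluster (S100a4), though the clustering did not use them.

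S100a8 and S100a9 were highest in neutrophil-like cells in both libraries. The class nearest to it was the Chil3 Slpi cluster in WT, and in KO the Prok2 Mdk cluster, which lay 2.24-fold (S100a8) and 1.79-fold (S100a9) below. S100a8 was at 13136 CPM in WT and 11712 CPM in KO there (intervals 12954 to 13319.8 and 11186 to 12255), and S100a9 was at 19392 CPM in WT and 17934 CPM in KO. S100a9 was the gene with the third most UMIs in these cells and S100a8 the one with the sixth most in each library. All 8 members together made up 4.09% of the UMIs of neutrophil-like cells in WT and 3.89% in KO, against 1.01% and 0.531% over all cells. Next came the Chil3 Slpi cluster in WT, with 5343 CPM in WT and 2760.1 CPM in KO for S100a8 and 8235 CPM in WT and 5683 CPM in KO for S100a9. In the Prok2 Mdk cluster S100a8 was at 4198 CPM in WT and 5217 CPM in KO and S100a9 at 4599.9 CPM in WT and 10039 CPM in KO, so that this cluster stood below the Chil3 Slpi cluster in WT and above it in KO. These 3 classes carried the highest summed neutrophil markers as well.

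**Figure D1:**
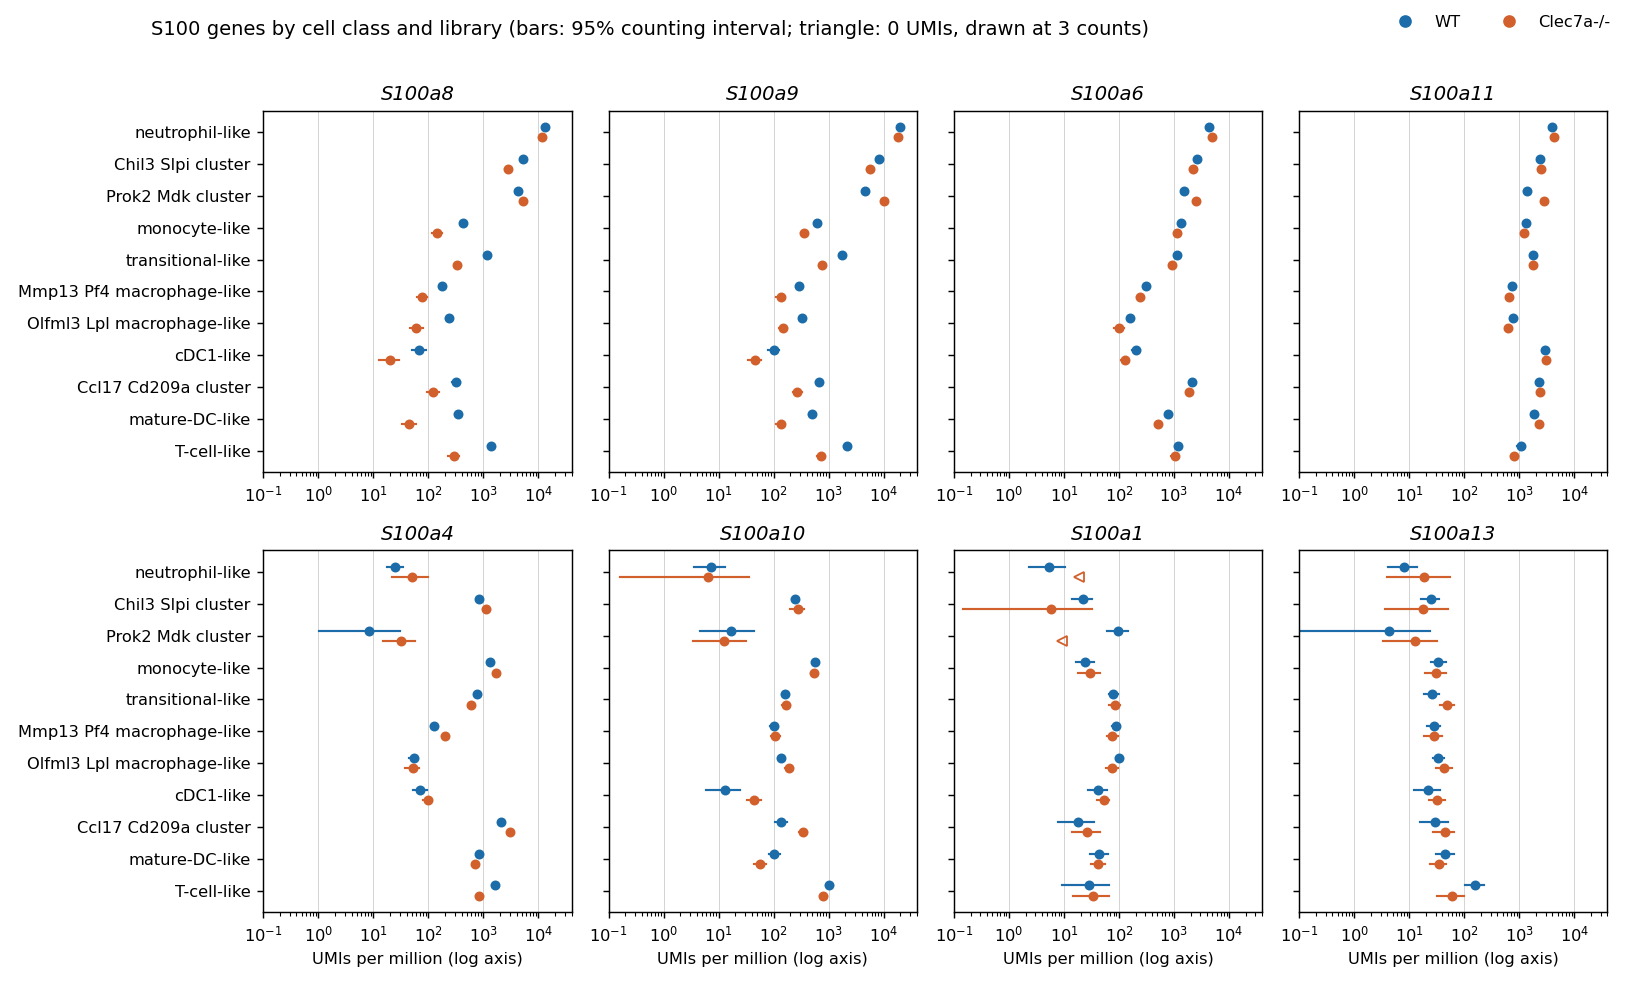
Level of each of the 8 S100 genes (panels, x axis in CPM on a log scale) in 11 cell classes (y axis) for WT and KO, with bars for exact 95% counting intervals and a triangle at 3 counts where no UMI was seen. S100a8 and S100a9 were highest in neutrophil-like cells, where S100a4 and S100a10 were near absent, and S100a11 differed less between classes than S100a8, S100a9, S100a4, S100a6 or S100a10.

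The pair was lower in every other class. Transitional-like cells had 1160.4 and 336 CPM of S100a8 (WT and KO, in this order from here on) and 1765 and 768 CPM of S100a9, and monocyte-like cells 421 and 143 CPM and 611 and 355 CPM. Monocyte-like cells were thus below transitional-like cells for both genes in both libraries. The Ccl17 Cd209a cluster had 313 and 123 CPM of S100a8 and 662 and 271 CPM of S100a9, and mature-DC-like cells 352 and 45.3 CPM and 493 and 133 CPM. Mmp13 Pf4 macrophage-like cells had 177 and 77.6 CPM of S100a8 and 286 and 133 CPM of S100a9, and Olfml3 Lpl macrophage-like cells 233 and 60.4 CPM and 328 and 150.4 CPM. The lowest values were in cDC1-like cells, at 67.4 and 19.7 CPM of S100a8 and 100.4 and 45.0 CPM of S100a9. The highest class lay above the lowest 195-fold (WT) and 596-fold (KO) for S100a8, and 193-fold and 398-fold for S100a9. Neighbours in the order whose intervals overlapped were, for S100a8 in WT, mature-DC-like cells with monocyte-like cells and with the Ccl17 Cd209a cluster. In KO they were transitional-like with T-cell-like cells, and the run from monocyte-like cells through the Ccl17 Cd209a cluster and both macrophage-like classes to mature-DC-like cells. For S100a9, overlapping neighbours were the Ccl17 Cd209a cluster with monocyte-like cells and, in WT, both macrophage-like classes with each other. In KO, transitional-like cells overlapped T-cell-like cells, and mature-DC-like cells overlapped both macrophage-like classes.

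T cells are not known to express S100a8 or S100a9, so the T-cell-like class was taken as the background level of free RNA and of barcodes that hold more than 1 cell. That background was 1388 CPM in WT and 287 CPM in KO for S100a8 and 2142 CPM in WT and 716 CPM in KO for S100a9, which is 10.6% (WT) and 2.45% (KO) of the neutrophil-like level for S100a8 and 11.04% and 3.99% for S100a9. For each gene 3 of the other 10 classes lay above it in both libraries: neutrophil-like cells, the Chil3 Slpi cluster and the Prok2 Mdk cluster. Neutrophil-like cells exceeded it 9.45-fold (WT) and 40.6-fold (KO) for S100a8 and 9.04-fold and 24.97-fold for S100a9. The Prok2 Mdk cluster exceeded it 3.02-fold and 18.1-fold for S100a8 and 2.15-fold and 13.98-fold for S100a9. Monocyte-like, macrophage-like, cDC1-like and mature-DC-like cells and the Ccl17 Cd209a cluster were below the T-cell-like level for both genes, so their values are not counted as expression above it. How well that level serves as background for these classes was not tested. In KO the transitional-like and T-cell-like intervals overlapped for S100a8 and for S100a9, which leaves 6 classes below in KO and 7 in WT.

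The T-cell-like level was not spread evenly over its cells. No UMI of S100a8 was seen in 46 of 67 WT and 104 of 121 KO T-cell-like cells, whereas none of the 496 WT and 87 KO neutrophil-like cells was without one. In WT, 7 T-cell-like cells with at least 10 S100a8 UMIs held 86.8% of the class's S100a8 UMIs, and in KO 3 such cells held 47.1%. The highest single T-cell-like cell had 82 (WT) and 12 (KO) S100a8 UMIs. For S100a9, 33 of 67 and 82 of 121 T-cell-like cells had none, and 8 and 7 cells with at least 10 UMIs held 86.4% and 62.9%. The 5 richest barcodes carried 75.3% and 69.1% of the S100a8 UMIs of the class, so a few barcodes made up most of the background. Without the 5 T-cell-like barcodes richest in each gene, a choice made after the values were seen, S100a8 was at 375 CPM in WT (286 to 482) and 95.2 CPM in KO (58.9 to 145), and S100a9 at 669 and 371 CPM. Against this lower background, 4 classes lay above in both libraries for each gene, the fourth being transitional-like cells. No barcodes were left out of the other classes, so this comparison cannot show that transitional-like cells exceed background. Some granule genes of neutrophils were present among the T-cell-like cells too. Retnlg, a secreted neutrophil protein, was at 531 and 63.2 CPM and Lcn2, the iron-sequestering lipocalin, at 263 and 42.1 CPM. The granule genes Ngp, Ltf and Camp had 7, 2 and 0 UMIs there in WT and 0 UMIs each in KO. Per S100a8 UMI, Retnlg stood at 0.383 and 0.221 in T-cell-like and at 0.499 and 0.472 in neutrophil-like cells. Lcn2 stood at 0.189 and 0.147 in T-cell-like and at 0.156 and 0.157 in neutrophil-like cells, and so was not lower in T-cell-like cells of WT. Doublet scores placed 11.9% and 12.4% of T-cell-like cells in the top 5% of their library. In WT this share was 0.202% in neutrophil-like and 0.242% in monocyte-like cells. The next highest of the 11 classes were transitional-like cells in WT (10.7%) and the Ccl17 Cd209a cluster in KO (10%). The part of doublets in the T-cell-like level was not tested.

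**Figure D2:**
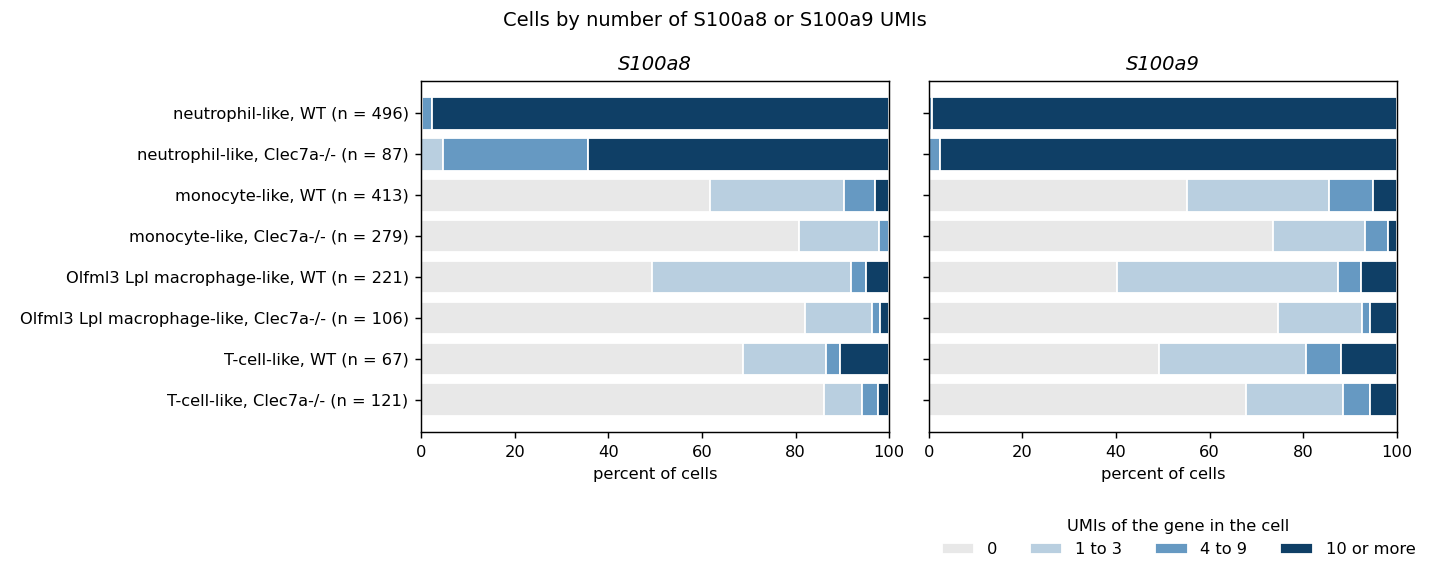
Share of cells (x axis, percent) with 0, 1 to 3, 4 to 9 or at least 10 UMIs of S100a8 or S100a9 (panels, stacked bars) by cell class and library. Neutrophil-like cells had no cell at 0 for either gene, while 46 of 67 WT and 104 of 121 KO T-cell-like cells had no S100a8 UMI.

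To compare shares of positive cells at equal depth, each cell was thinned at random to 500 UMIs, which every cell had. S100a8 was then seen in 98.2% of WT and 93.1% of KO neutrophil-like cells (100% and 100% unthinned), in 79.5% and 63.3% of Chil3 Slpi cells (97.3% and 96.7%) and in 58.3% and 79.5% of Prok2 Mdk cells (70.0% and 89.6%). The background share in T-cell-like cells was 19.4% and 9.09% (31.3% and 14.05% unthinned), at median depths of 2058 and 1552 UMIs against 2799 and 1748 in neutrophil-like cells. Monocyte-like cells, at 15.5% and 7.53%, did not exceed it. For S100a9 the thinned shares were 99.6% and 100% in neutrophil-like, 56.1% and 91.8% in Prok2 Mdk, 31.3% and 18.2% in T-cell-like and 18.4% and 10.8% in monocyte-like cells.

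Over all cells, S100a8 and S100a9 were lower in KO than in WT, and most of the other members differed little. S100a8 was at 2529.9 CPM in WT and 633 CPM in KO, a log2 ratio of KO over WT of -2.00 (-2.04 to -1.95), and S100a9 at 3752 CPM in WT and 1172 CPM in KO (-1.68, -1.71 to -1.65). S100a6 was at 1340.4 CPM in WT and 809 CPM in KO (-0.73), S100a4 at 492 and 634 CPM (0.37), S100a11 at 1739 and 1787 CPM (0.04) and S100a10 at 174 and 192 CPM (0.15). S100a1 was at 57.0 and 52.8 CPM (-0.11) and S100a13 at 28.5 and 34.8 CPM (0.29). Differences of at least 2-fold are counted below among genes with at least 100 UMIs over both libraries in the cells concerned. Over all cells 2 of 8 members, S100a8 and S100a9, were past 2-fold, both lower in KO, beside 4.13% of 8470 genes, whose median log2 ratio was 0.129 against -0.035 for the members. When every cell was given equal weight, S100a9 was under 2-fold (-0.86). Scaling by edgeR's TMM factors in place of total UMIs shifts every log2 ratio by -0.17 over all cells, which turned S100a10 to -0.02 and S100a11 to -0.13.

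Within neutrophil-like cells the pair differed far less between the libraries than over all cells. S100a8 had a log2 ratio of -0.17 (-0.23 to -0.10) and S100a9 of -0.11 (-0.17 to -0.06) in this class. None of the 4 members with enough UMIs was past 2-fold there, beside 4.49% of 1738 genes. The value moved with the class boundary: with Prok2 Mdk cells joined to the class after the values were seen, S100a8 stood at -0.69 and S100a9 at -0.46, and at a limit of 10% mitochondrial UMIs S100a8 stood at 0.05. Per cell, neutrophil-like cells carried a mean of 40.0 (WT) and 21.5 (KO) S100a8 UMIs and 59.1 and 32.9 S100a9 UMIs, at median totals of 2799 and 1748 UMIs per cell. The 5 richest of the 87 KO cells held 25.8% of the S100a8 and 17.4% of the S100a9 UMIs. In WT the 5 richest of 496 held 2.93% and 2.75%. At least 10 S100a8 UMIs were seen in 484 WT and 56 KO cells. The intervals do not cover such differences between cells.

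Most of the WT UMIs of both genes sat in a class that was a small part of KO. Neutrophil-like cells were 18.4% of WT and 4.35% of KO cells, and gave 12.3% and 2.11% of all UMIs. They held 63.9% of S100a8 UMIs in WT and 39.0% in KO, and 63.6% and 32.3% of S100a9 UMIs. The Prok2 Mdk cluster held 3.19% and 35.02% of S100a8 UMIs and 2.36% and 36.4% of S100a9 UMIs, with 1.92% and 4.25% of all UMIs. In KO the 2 classes together therefore held most S100a8 and S100a9 UMIs in about equal parts. Giving every class its WT level and its KO share of UMIs gives a log2 ratio of -1.40 of the -2.00 observed for S100a8, -1.45 of -1.68 for S100a9 and -0.57 of -0.73 for S100a6. These values depend on the class boundaries and were not recomputed with neutrophil-like and Prok2 Mdk cells joined. Joining these classes took the ratio within them to -0.69 for S100a8 and -0.46 for S100a9. In sorted and pooled cells, shares of classes also depend on the gate and on cell loss, and with 1 library each they cannot be told apart from genotype.

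Over the 11 classes, 17 of 64 member-by-class values with enough UMIs were past 2-fold, 14 lower and 3 higher in KO, and 15 of the 17 belonged to S100a8 or S100a9. The share of all genes past 2-fold was 21.7% in the Prok2 Mdk cluster, which held 2 of the 3 higher values. In the other classes it ran from 0.940% to 4.49%. In T-cell-like cells S100a8 stood at -2.27 (-2.69 to -1.88) and S100a9 at -1.58, 2 of 6 members beside 1.64% of 733 genes. The background class was thus among those with the greatest difference, and without its 5 richest barcodes the values were -1.95 and -0.85, the latter under 2-fold. In mature-DC-like cells S100a8 (-2.95, -3.43 to -2.51) and S100a9 (-1.89) were 2 of 6 members past 2-fold, beside 1.43% of genes. In monocyte-like cells S100a8 (-1.56) was past 2-fold and S100a9 (-0.78) was not, 1 of 6 members beside 1.25% of genes. Transitional-like cells had S100a8 at -1.79 and S100a9 at -1.20, 2 of 7 members beside 1.71% of genes. Apart from the T-cell-like class itself, these classes lay under the T-cell-like level for the pair in at least 1 library. Whether their ratios are ratios of background levels was not tested. Transitional-like cells lay above the T-cell-like level only when its 5 richest barcodes were left out and none of their own were. Against the full level they lay below in WT and overlapped it in KO, for both genes.

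The pair was lower in KO in macrophage-like, cDC1-like and mature-DC-like cells and the Ccl17 Cd209a cluster too, all of which lay below the T-cell-like level for both genes in both libraries. The neutrophil gene Retnlg was also lower in KO, at -3.14 in Mmp13 Pf4 macrophage-like, -3.80 in mature-DC-like and -3.03 in T-cell-like cells. Whether the ratios of the pair in these classes are ratios of background levels was not tested. S100a8 stood at -1.18 and S100a9 at -1.10 in Mmp13 Pf4 macrophage-like cells (2 of 7 members, beside 1.19% of genes) and at -1.94 and -1.12 in Olfml3 Lpl macrophage-like cells (2 of 8, beside 0.940%). In cDC1-like cells S100a9 stood at -1.15 (1 of 4 members, beside 1.61%), and S100a8 had too few UMIs there. The Ccl17 Cd209a cluster had S100a8 at -1.34 and S100a9 at -1.29, both lower, and S100a10 higher at 1.31 (3 of 6 members, beside 1.53%). Of the 17 values, 7 stayed past 2-fold under every other setting of filters, clustering, scaling and weighting that gave a value: S100a8 in monocyte-like, Olfml3 Lpl macrophage-like, mature-DC-like and T-cell-like cells and the Ccl17 Cd209a cluster, and S100a9 in mature-DC-like and T-cell-like cells. All 7 thus lay in the background class itself or in classes below its level for the pair in both libraries. Leaving out the 5 richest T-cell-like barcodes was not among these settings, and it put S100a9 there at -0.85. At a limit of 10% mitochondrial UMIs the transitional-like values shrank to -0.36 for S100a8 and -0.05 for S100a9, and with the highest doublet scores removed the Mmp13 Pf4 macrophage-like values shrank to -0.35 and -0.61.

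**Figure D3:**
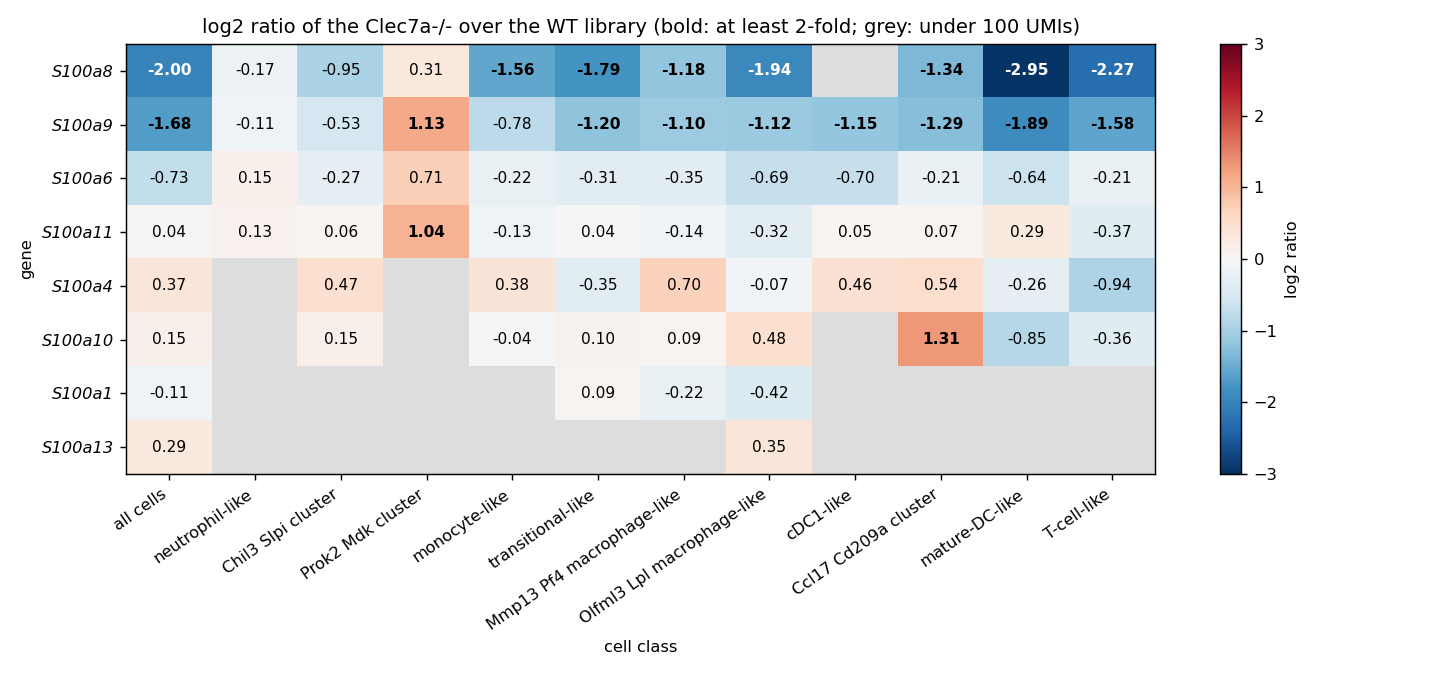
Log2 ratio of KO over WT (colour and printed value) for the 8 S100 genes (rows) in all cells and in 11 classes (columns), with values of at least 2-fold in bold and those from under 100 UMIs in grey. S100a8 and S100a9 lay below 0 in every class with a printed value except the Prok2 Mdk cluster, with values close to 0 in neutrophil-like cells.

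The Prok2 Mdk cluster was the 1 class in which S100a8 and S100a9 were higher in KO. S100a9 stood at 1.13 (1.03 to 1.23), S100a8 at 0.31 (0.20 to 0.43), S100a11 at 1.04 (0.86 to 1.23) and S100a6 at 0.71. S100a9 and S100a11 were thus 2 of 4 members past 2-fold, both higher, but 21.7% of the 942 genes with enough UMIs in this cluster were also past 2-fold, far more than in any other class. The cluster had the lowest depth, with medians of 1137.5 and 910 UMIs per cell, and its summed neutrophil markers were 15099 and 21961 CPM. Csf3r, the receptor for G-CSF on neutrophils, was at 982 and 2381 CPM there (1.28) and Retnlg at 614 and 1298 CPM (1.08), so neutrophil genes other than the S100 pair were higher in KO as well. The part of cell mixture in these values was not tested. After integration of the libraries by reciprocal PCA the cluster's values were -0.21 for S100a8, 0.47 for S100a9 and 0.50 for S100a11, and TMM scaling shifts each of them by 0.52. In the Chil3 Slpi cluster, S100a8 stood at -0.95 and S100a9 at -0.53, and 0 of 6 members were past 2-fold beside 3.37% of 1869 genes.

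The number of S100a8 UMIs per S100a9 UMI was similar across WT classes and lower in KO in most of them. It was 0.677 (0.665 to 0.690) in WT and 0.653 (0.616 to 0.692) in KO neutrophil-like cells, whose intervals overlapped. In WT it was 0.649 in the Chil3 Slpi cluster, 0.689 in monocyte-like, 0.658 in transitional-like, 0.713 in mature-DC-like and 0.648 in T-cell-like cells. The Prok2 Mdk cluster was the WT class farthest above the rest, at 0.913 (0.837 to 0.996), and the Ccl17 Cd209a cluster the lowest, at 0.473. In KO the corresponding values were 0.486, 0.402, 0.437, 0.340 and, in T-cell-like cells, 68 S100a8 to 170 S100a9 UMIs, with 0.520 in the Prok2 Mdk and 0.456 in the Ccl17 Cd209a cluster. The intervals of WT and KO were apart in 7 classes (the Chil3 Slpi and Prok2 Mdk clusters and monocyte-like, transitional-like, Olfml3 Lpl macrophage-like, mature-DC-like and T-cell-like cells) and overlapped in 4 (neutrophil-like, Mmp13 Pf4 macrophage-like and cDC1-like cells and the Ccl17 Cd209a cluster). The KO library as a whole stood at 0.540 (0.521 to 0.560) against 0.674 in WT. The KO T-cell-like background thus held fewer S100a8 UMIs per S100a9 UMI than KO neutrophil-like cells, whereas in WT both classes were alike within counting error. Its KO interval (0.297 to 0.533) overlapped those of the Prok2 Mdk cluster (0.490 to 0.551) and of the KO library as a whole.

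**Figure D4:**
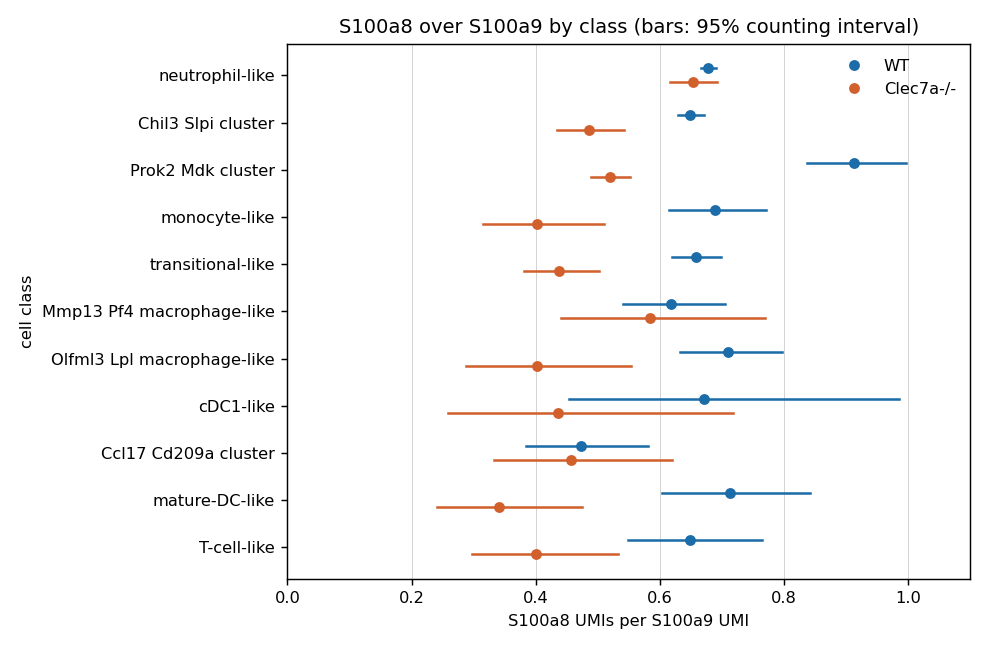
S100a8 UMIs per S100a9 UMI (x axis) in each of 11 cell classes (y axis) for WT and KO, with exact 95% intervals for counting error. WT values lay between 0.648 and 0.713 in 8 of the 11 classes, and the KO interval was apart from the WT interval in 7 classes.

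S100a6 followed the pair in part. Of the 11 classes it was highest in neutrophil-like cells, at 4347 CPM in WT and 4811 CPM in KO, and next, in the order of WT, in the Chil3 Slpi cluster at 2615 and 2169 CPM, the Ccl17 Cd209a cluster at 2133 and 1844 CPM and the Prok2 Mdk cluster at 1532 and 2503 CPM. Unlike S100a8 and S100a9, in WT it was nearly as high in cells of the monocyte series as in the Prok2 Mdk cluster. In KO the Prok2 Mdk cluster stood well above them. Monocyte-like cells had 1335 and 1150.0 CPM and transitional-like cells 1137 and 915 CPM, and the T-cell-like level of 1188 and 1024 CPM was near these. Mature-DC-like cells had 783 and 502 CPM, Mmp13 Pf4 macrophage-like cells 312 and 245 CPM, cDC1-like cells 205 and 126 CPM and Olfml3 Lpl macrophage-like cells 159.9 and 98.8 CPM. Within the monocyte and macrophage classes S100a6 was thus 8.34-fold (WT) and 11.6-fold (KO) higher in monocyte-like than in Olfml3 Lpl macrophage-like cells. No S100a6 value reached 2-fold between libraries, though TMM scaling put the Prok2 Mdk cluster at 1.23 and integration put Mmp13 Pf4 macrophage-like cells at -1.12 and the Prok2 Mdk cluster at 0.09. With the highest doublet scores removed, the value of Mmp13 Pf4 macrophage-like cells was -0.01. It was lower in KO in 9 of 11 classes, from -0.70 in cDC1-like to -0.21 in the Ccl17 Cd209a cluster, and higher in neutrophil-like cells (0.15) and the Prok2 Mdk cluster (0.71). The neutrophil-like value turned negative with integrated clusters, classes from marker scores, TMM scaling and joined clusters, to -0.28 at the lowest. In WT the intervals of neighbours overlapped from the Prok2 Mdk cluster through monocyte-like and T-cell-like to transitional-like cells.

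S100a11 was the most even of the 6 members with the most UMIs, with the highest class 5.50-fold (WT) and 6.95-fold (KO) above the lowest. It was at 3966 CPM in WT and 4341 CPM in KO in neutrophil-like cells and second highest in cDC1-like cells at 2901 and 3008 CPM, where all other members were at or below 205 CPM. The Chil3 Slpi cluster had 2417 and 2522 CPM, the Ccl17 Cd209a cluster 2246 and 2361 CPM, mature-DC-like cells 1876 and 2293 CPM and transitional-like cells 1739.7 and 1789 CPM. Lower values were seen in monocyte-like cells (1332 and 1218 CPM), T-cell-like cells (1051 and 813 CPM), Olfml3 Lpl macrophage-like cells (783 and 625 CPM) and Mmp13 Pf4 macrophage-like cells (722 and 656 CPM). Macrophage-like classes thus had the least S100a11, as they had little S100a6. In the Prok2 Mdk cluster it was at 1375 and 2829.6 CPM. Outside that cluster, the log2 ratios of KO over WT ran from -0.37 in T-cell-like to 0.29 in mature-DC-like cells, and none reached 2-fold.

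S100a4, unlike S100a8 and S100a9, was scarce in neutrophil-like cells. It was lowest in neutrophil-like cells, at 25.1 CPM in WT and 50.2 CPM in KO (38 and 8 UMIs), and in the Prok2 Mdk cluster, at 8.46 and 31.1 CPM (2 and 10 UMIs). The Chil3 Slpi cluster, by contrast, had 822 and 1137 CPM, 32.3-fold (WT) and 21.4-fold (KO) above neutrophil-like cells, while its S100a8 was below theirs. Monocyte markers were also higher in this cluster than in neutrophil-like cells, at 1505 and 2163 CPM against 963 and 1048 CPM. The part of cell mixture in its S100a4 and S100a10 levels was not tested. Thinned to 500 UMIs, 31.1% and 43.3% of Chil3 Slpi cells but 1.21% and 3.45% of neutrophil-like cells had an S100a4 UMI (73.5% and 76.7%, and 5.44% and 8.05%, unthinned). The highest level was in the Ccl17 Cd209a cluster at 2122 and 3075 CPM. Monocyte-like cells had 1293 and 1677 CPM and T-cell-like cells 1605 and 839 CPM, T cells being known to express S100a4. Transitional-like cells had 759 and 596 CPM, Mmp13 Pf4 macrophage-like cells 125 and 202 CPM and Olfml3 Lpl macrophage-like cells 54.5 and 51.6 CPM, a monocyte-like level 23.6-fold and 32.2-fold above the last. Mature-DC-like cells had 838 and 699.8 CPM. In cDC1-like cells S100a4 was at 70.3 and 97.5 CPM, 29.9-fold and 31.4-fold below the Ccl17 Cd209a cluster.

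Between libraries no S100a4 value with at least 100 UMIs reached 2-fold, but with the highest doublet scores removed T-cell-like cells stood at -1.06. It was higher in KO in the Ccl17 Cd209a cluster (0.54), the Chil3 Slpi cluster (0.47), monocyte-like (0.38) and Mmp13 Pf4 macrophage-like cells (0.70), each beyond counting error. It was lower in T-cell-like (-0.94), transitional-like (-0.35) and mature-DC-like cells (-0.26). In Mmp13 Pf4 macrophage-like cells the S100a4 UMIs lay in 49 of 310 WT and 33 of 190 KO cells. A single cell held 11.9% of them in WT and 19.2% in KO, which the counting interval does not cover. The transitional-like value was 0.01 after integration, and the mature-DC-like value 0.07 with classes from marker scores.

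S100a10, the partner of Anxa2, was highest in T-cell-like cells in both libraries, at 1028 CPM in WT and 801 CPM in KO, and all other 10 classes lay below. Monocyte-like cells came next at 554 and 537 CPM, then the Chil3 Slpi cluster in WT at 247 and 273 CPM. Transitional-like cells had 159 and 169 CPM, Olfml3 Lpl macrophage-like cells 136 and 190.0 CPM, Mmp13 Pf4 macrophage-like cells 99.8 and 106 CPM and mature-DC-like cells 103 and 57.3 CPM. Like S100a4, it was close to absent from neutrophil-like cells (11 and 1 UMIs) and the Prok2 Mdk cluster (4 and 4 UMIs), and 32.6-fold higher in Chil3 Slpi than in neutrophil-like cells of WT. In the Ccl17 Cd209a cluster it was at 137 and 342 CPM (1.31, 0.89 to 1.76). Besides those of the Prok2 Mdk cluster, this was the only member value with at least 100 UMIs that was more than 2-fold higher in KO. That value was 0.89 at a limit of 10% mitochondrial UMIs and 0.80 with classes from marker scores, both under 2-fold. In cDC1-like cells S100a10 was at 12.9 and 44.2 CPM with under 100 UMIs. Anxa2 was at 269 and 331 CPM over all cells (0.30).

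S100a1 and S100a13 were the rarest members. S100a1 was found mainly in macrophage-like and transitional-like cells, at 102 and 75.8 CPM in Olfml3 Lpl macrophage-like, 88.3 and 75.7 CPM in Mmp13 Pf4 macrophage-like and 79.4 and 84.2 CPM in transitional-like cells, with overlapping intervals between neighbours. The macrophage-like classes were among the lowest for S100a6 and S100a11. None of the 3 differed 2-fold between libraries (-0.42, -0.22 and 0.09). In the Prok2 Mdk cluster, WT cells had 23 S100a1 UMIs (97.3 CPM) in 12 cells, while KO cells had 0 of 321250 UMIs, which allows up to 9.34 CPM at 3 counts. The exact interval of the log2 ratio, which takes in the counting error of the 23 UMIs too, ended at -2.97. The highest of those WT cells had 4, and the total is under the 100 UMIs set for counting. S100a13 was highest in T-cell-like cells, at 154 and 59.0 CPM from 27 and 14 UMIs, and was at 33.7 and 42.8 CPM in Olfml3 Lpl macrophage-like cells, the 1 class with enough UMIs for a ratio (0.35). In KO the T-cell-like interval overlapped that of transitional-like cells (49.4 CPM), and 8 classes were within counting error of the T-cell-like level. Of the other 9 S100 genes none reached 100 UMIs over both libraries. S100a16 had 69 and S100a14 had 66 UMIs, S100g, S100a2, S100a3, S100a7a and S100a5 had 22, 21, 18, 4 and 3, and S100b and S100z had 0.

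Binding partners and receptors of S100 proteins were read from a list of 20 genes, 18 of which had enough UMIs over all cells. Il1a, the cytokine whose release S100a13 assists, was at 390.4 and 169 CPM (-1.21) and Tlr4, a receptor for S100a8 and S100a9, at 44.2 and 20.0 CPM (-1.14). These 2 were past 2-fold, both lower in KO, beside 4.13% of all genes, and the median over the 18 was -0.05. Plaur, the urokinase receptor, was at 1181 and 603 CPM (-0.97). Cd33 (-0.93) and Cd36 (-0.63), cell-surface proteins reported to bind S100a9, were also lower, whereas Anxa1 (-0.03), Ahnak (0.14) and Cybb (-0.14), the membrane subunit of the phagocyte oxidase, were close to equal. Ager and Fgf1 had under 100 UMIs. Within neutrophil-like cells 0 of 10 listed partners with enough UMIs were past 2-fold, beside 4.49% of all genes there. By class, Il1a (-1.33) and Ncf1 (-1.02), a cytosolic oxidase subunit, were lower in the Chil3 Slpi cluster (2 of 12, beside 3.37% of all genes). Cd36 was lower in transitional-like (-1.36, 1 of 16, beside 1.71%) and Mmp13 Pf4 macrophage-like cells (-1.24, 1 of 15, beside 1.19%). Plaur was lower in mature-DC-like cells (-1.98, 1 of 10, beside 1.43%). Ahnak, a scaffold for the S100a10 and Anxa2 complex, was higher in the Ccl17 Cd209a cluster (1.04, 1 of 8, beside 1.53%). S100a10 was higher in that cluster too.

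Of 7 listed genes acting on S100a8 and S100a9 transcription, transcription factors and the receptor gene Csf3r, 6 had enough UMIs over all cells. Of these 6, 0 were past 2-fold, beside 4.13% of all genes, with a median of -0.42. Cebpd (-0.62), Csf3r (-0.61), Cebpa (-0.43) and Cebpb (-0.41) were lower, Spi1 (0.07) and Stat3 (0.31) were not. In the Prok2 Mdk cluster Cebpd (190.4 and 429.6 CPM, 1.16) and Csf3r were 2 of 5 past 2-fold, both higher in KO, where 21.7% of all genes were past 2-fold. Among 5 granule genes, all 4 with enough UMIs were past 2-fold lower over all cells, beside 4.13% of all genes in either direction: Retnlg (-2.48), Lcn2 (-2.03), Ltf (-1.79) and Ngp (-3.96). Within neutrophil-like cells Retnlg (6555 and 5526 CPM, -0.25) and Lcn2 (2055 and 1838 CPM, -0.16) differed little, as S100a8 and S100a9 did. Ngp, a gene of the specific granules of neutrophils, was at 534 and 138 CPM (-1.92) in the same cells.

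Across the 22 class-by-library points (11 classes in 2 libraries, which share depth and cell composition within a library), the genes most like each member were found by Pearson's r of log2(CPM + 1) among 8470 genes, as a description. For S100a8 they were S100a9 (0.992), Lcn2 (0.979) and Retnlg (0.977), and for S100a9 S100a8 (0.992), Il1f9 (0.984) and G0s2 (0.980). S100a8 and S100a9 were thus each other's nearest gene, followed by neutrophil markers such as Lcn2, Retnlg and G0s2. For S100a6 the most alike were Neat1 (0.921), Btg1 (0.913) and Eif1 (0.913), for S100a11 4833407H14Rik (0.906), Lcp1 (0.904) and Sp140 (0.877), for S100a4 Atp2b4 (0.911), Tpt1 (0.877) and Cnn3 (0.862) and for S100a10 Dcaf1 (0.922), Raph1 (0.920) and Sept11 (0.915). Among the members themselves, r was 0.815 between S100a8 and S100a6, 0.843 between S100a9 and S100a6 and 0.786 between S100a4 and S100a10. It was -0.237 between S100a8 and S100a4 and -0.566 between S100a10 and S100a11. Neighbours on the chromosome were therefore not always alike in pattern. S100a4 lies 6836 bases from S100a6 and had r of 0.205 with it. S100a6 lies 44796 bases from S100a8, the pair with r of 0.815.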

How the data were processed

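Single-cell RNA-seq libraries were prepared with the SeekOne MM 3′ kit, in which cells settle in microwells, although the description in the labels names another platform. What the authors deposited for each library is a matrix of raw UMI counts (genes by barcodes), not normalized. The submitters' processing notes name Cell Ranger 2.1.1, and the genome build is not given in the sources used here. Of 32285 gene identifiers, 32158 matched GENCODE M21, including all 8 members.

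Barcodes outside 200 to 4000 detected genes or above 5% mitochondrial UMIs were removed, leaving 12283285 (WT) and 7559096 (KO) UMIs. Clusters were made in Seurat 5.3.0 (log-normalization to 10000, 2000 variable features without S100 genes, 20 principal components, Louvain resolution 0.8) and named from marker lists. Scrublet (scanpy 1.11.5) called 0 and 1 barcodes and so did not work as a doublet caller, and doublets were kept. UMIs were summed per class and library in Python 3.11.15 (scipy 1.17.1). CPM carry exact Poisson intervals, shares exact Clopper-Pearson intervals and log2 ratios, with 0.5 UMI added, exact conditional binomial intervals. All cover counting error only, and with 1 library per genotype no test across samples was made. Interval and count code was checked on simulated data.

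The genes named are the 8 members, the other S100 genes, class markers and the 3 genes most like each of 6 members. Fixed lists of 20 partners, 7 genes acting on S100a8 and S100a9 transcription and 5 granule genes were named too. The members and lists were chosen with earlier results of these data known. Alternatives covered the filters, doublet scores, clustering, class assignment, normalization, weighting, pseudocount and thinning. In the class assignment by marker scores, all macrophage cells were set against the Olfml3 Lpl macrophage-like class. Clec7a was not analysed here.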

Additional observations from a re-analysis of the deposited data

Results flagged for a closer look

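For 6 members the KO over WT log2 ratio was positive in 1 class and negative in another, each beyond counting error. S100a8 stood at 0.31 in the Prok2 Mdk cluster and at -2.95 in mature-DC-like cells, and S100a9 at 1.13 and -1.89 in the same classes. S100a6 stood at 0.71 in the Prok2 Mdk cluster and at -0.70 in cDC1-like cells, and S100a11 at 1.04 in that cluster and at -0.37 in T-cell-like cells. S100a4 stood at 0.70 in Mmp13 Pf4 macrophage-like cells and at -0.94 in T-cell-like cells. S100a10 stood at 1.31 in the Ccl17 Cd209a cluster and at -0.85 in mature-DC-like cells. With 1 library per genotype, these differences between classes were not tested. Over the settings tried, S100a10 in mature-DC-like cells ran from -1.07 to 0.004 and S100a8 in the Prok2 Mdk cluster from -0.21 to 0.84. The other values named here kept their sign. S100a8 and S100a9 lay below the T-cell-like level in mature-DC-like cells of both libraries.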

How the results depend on the processing

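Over 702 recomputed KO over WT log2 ratios, 36 changed sign, all for values under 2-fold in the reported fit. The 184 recomputations of values past 2-fold in that fit kept their sign, but not all of them stayed past 2-fold. Of the 17 class values past 2-fold, 7 stayed so under every alternative that gave a value. For S100a9 over all cells (-1.68), the ratio was -1.85 with up to 10% mitochondrial UMIs, -1.88 with 500 to 6000 genes, -1.85 with TMM scaling and -0.86 as a mean over cells. For S100a9 in neutrophil-like cells (-0.11), these were -0.0096 with up to 10% mitochondrial UMIs, -0.38 with integrated clusters, -0.36 with classes from marker scores and -0.36 with TMM scaling. Joined with Prok2 Mdk cells, a choice made after seeing the data, it was -0.46, and with Chil3 Slpi cells as well -0.35. The count of values past 2-fold (17) fell to 11 with means over cells and was 12 to 23 otherwise. Classes above the T-cell-like level for S100a9 (3) numbered 1 with classes from marker scores, which hold no counterpart of the Chil3 Slpi and Prok2 Mdk clusters. The share of WT T-cell-like cells with an S100a9 UMI (31.3%) was 50.7% without thinning. The cause of the other shifts was not tested. TMM shifted log2 ratios by -0.25 in neutrophil-like cells, -0.15 in the Chil3 Slpi cluster and 0.52 in the Prok2 Mdk cluster. Depth limits S100a1 and S100a13, which had enough UMIs for a ratio in 3 and 1 of 11 classes. No paired analysis was possible because each genotype has 1 library and the labels give no replicate numbers.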

Other observations

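Barcodes with over 5% mitochondrial UMIs (729 WT and 1057 KO), described apart after the data were seen, had S100a8 at 269 and 117 CPM, S100a9 at 463 and 246 CPM, and S100a4 at 317 and 317 CPM. S100a6 was at 2188 and 946 CPM and S100a11 at 1356 and 1812 CPM in these barcodes. In WT, S100a8 and S100a9 were thus far below the levels of the kept cells while S100a6 was above its level there. The 17 WT and 12 KO epithelial-like cells had S100a6 at 4932 and 6095 CPM and S100a10 at 1413 and 1459 CPM, and in WT 1 cell held 55.6% of these S100a6 UMIs and 1 cell 49.0% of the S100a10 UMIs. The 11 WT and 21 KO plasma-cell-like cells had S100a8 at 1363 and 236 CPM, and 1 WT cell held 39 of the 55 UMIs behind the WT value.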
